A study of Mus musculus with 4 samples.

Results

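The immunity-related GTPases Irgm1, Irgm2, Igtp, Iigp1 and Tgtp1 were followed in mouse bone marrow-derived macrophages (BMDMs). A probe was taken when the gene symbol in the deposited table, or the transcript named for the probe in the scanner files, was one of these 5 genes. This gave 7 of the 56605 probes on the array and 4 of the 25107 genes that could be named: Irgm1 with 3 probes, Irgm2 with 1, Igtp with 1 and Iigp1 with 2. No probe carried the name or the transcript of Tgtp1. The probe of its near-identical copy Tgtp2 is given beside the members as another gene of the family, and transcripts of the 2 copies cannot be told apart from it with the sources used here.

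BMDMs are macrophages grown from bone marrow with the growth factor M-CSF, here from male C57BL/6J mice. R848 is a synthetic ligand of Toll-like receptor 7. Total RNA from 4 cultures was hybridised to 4 Agilent arrays with 1 colour: Batf2-/- macrophages with R848 at 100 ng/ml for 8 h, untreated Batf2-/- macrophages, wild-type macrophages with the same R848 treatment, and untreated wild-type macrophages. Batf2 is a transcription factor of the AP-1 type that is induced in activated macrophages. The labels give 0 h for both untreated groups, and no untreated group is labelled 8 h. R848 and time in culture therefore cannot be told apart in the differences between treated and untreated arrays. Each group is 1 array, so no difference below has a replicate check, and none carries a p-value. The 4 arrays share 1 slide and 1 scan.

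Immunity-related GTPases (IRGs) are large GTP-binding proteins that interferons induce in mouse cells, above all interferon-gamma. Effector IRGs such as Iigp1 (Irga6), Tgtp1 and Tgtp2 (Irgb6), Ifi47 (Irgd) and Gm12250 (Irgb10) load onto the vacuoles of intracellular parasites and bacteria and help to break them open. Irgm1, Irgm2 and Igtp (Irgm3) form the regulatory subfamily: they sit on the cell's own membranes and hold the effectors in their inactive GDP-bound state there. Transcription of the family runs through the interferon-stimulated response element (ISRE), a site of IRF factors, and the gamma-activated sequence (GAS), which answers to interferon-gamma.

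Irgm1, Irgm2, Igtp and Tgtp1 lie on chromosome 11, per the RefSeq annotation. The 250 bases before the annotated start of the 3 regulatory genes are shown because these genes moved together on the arrays. The sequences are RefSeq's for build GRCm38.p6, written 5′ to 3′ on the strand of the gene. Capitals mark matches to the ISRE or to the GAS (TTCNNNGAA) on either strand.
Irgm1, chr11:48871421-48871670, minus strand: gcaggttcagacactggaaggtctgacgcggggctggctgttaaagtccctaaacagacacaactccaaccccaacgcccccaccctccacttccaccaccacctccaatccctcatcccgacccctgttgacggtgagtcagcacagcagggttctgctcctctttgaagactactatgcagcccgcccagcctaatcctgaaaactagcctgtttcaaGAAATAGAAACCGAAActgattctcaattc
Irgm2, chr11:58214727-58214976, plus strand: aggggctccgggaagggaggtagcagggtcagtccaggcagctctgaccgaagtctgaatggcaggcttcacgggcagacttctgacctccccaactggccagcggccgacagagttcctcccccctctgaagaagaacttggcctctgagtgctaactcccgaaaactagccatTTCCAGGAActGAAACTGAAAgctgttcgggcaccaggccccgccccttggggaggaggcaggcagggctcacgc
Igtp, chr11:58199306-58199555, plus strand: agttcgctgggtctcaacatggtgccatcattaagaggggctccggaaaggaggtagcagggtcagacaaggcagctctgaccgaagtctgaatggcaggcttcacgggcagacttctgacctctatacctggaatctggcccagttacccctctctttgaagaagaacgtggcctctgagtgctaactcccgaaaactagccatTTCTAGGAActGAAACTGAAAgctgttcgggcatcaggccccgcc
The Irgm1 promoter held a pair of ISRE matches that overlap each other, starting 30 and 24 bases before the gene start, and no GAS match. Irgm2 and Igtp each held 1 GAS match followed 2 bases later by 1 ISRE match. In Irgm2 the GAS began 75 bases and the ISRE 64 bases before the gene start, and in Igtp they began 45 and 34 bases before it. Over 250 bases, the Irgm2 and Igtp promoters were 77.6% identical, against 54.4% for Irgm1 with Irgm2 and 56.4% for Irgm1 with Igtp.

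The same GAS and ISRE arrangement stood before the Tgtp genes and the family gene Gm12185, and Gm12250 held a different one. These shorter stretches, with 10 bases on either side of the matches, are shown so that the spacing can be compared.
Tgtp1, chr11:48992304-48992344, minus strand: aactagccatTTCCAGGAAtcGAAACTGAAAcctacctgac
Tgtp2, chr11:49064263-49064303, minus strand: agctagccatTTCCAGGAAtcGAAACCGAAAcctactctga
Gm12185, chr11:48927238-48927278, minus strand: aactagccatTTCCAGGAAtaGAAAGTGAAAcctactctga
Gm12250, chr11:58183742-58183816, plus strand: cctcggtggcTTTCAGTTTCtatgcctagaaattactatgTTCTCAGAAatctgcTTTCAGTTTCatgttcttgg
Of all 32851 promoters in the table, 2.98% held an ISRE match and 7.02% a GAS match in the same 250 bases, and 109 promoters, or 0.332%, held both. A GAS match within 5 bases of an ISRE match was found in 6 of them, or 0.0183%: Irgm2, Igtp, Tgtp1, Tgtp2, Gm12185 and the entry Gm32670. The 5 IRG genes among these belong to 1 gene family, so they are not independent cases. Promoters of 12 members and other IRG genes on chromosomes 7 and 11 were matched, and Irgc1 and Gm4070 were not. Of the 12, 7 held an ISRE and 6 a GAS match. Motifs of AP-1 and NF-kappaB factors were found in fewer of the 12. The AP-1 letters TGANTCA, present in 6.75% of all promoters, were found in 3 of the 12, among them Irgm1, where the match began 115 bases before the gene start. A kappaB site, present in 0.14% of all promoters, was in 0 of the 12. The composite AP-1 and IRF element was also in 0 of the 12 at either of 2 spacings, which were in 0.10% and 0.097% of all promoters. A match is a description of the letters and not evidence of binding.

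**Figure D1:**
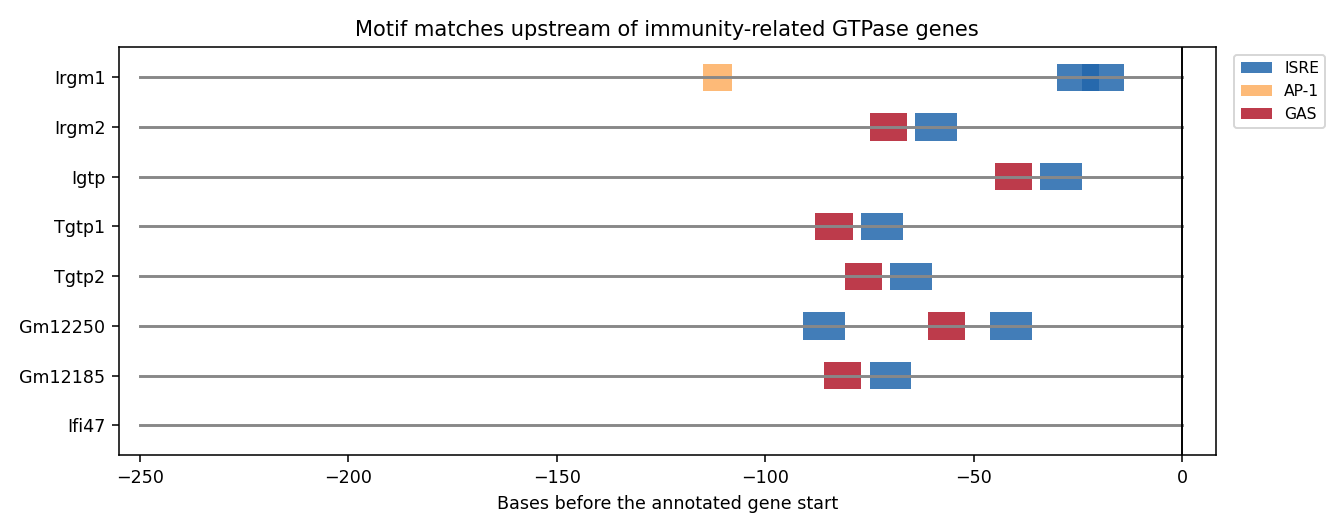
Motif matches in the 250 bases before the start of 8 immunity-related GTPase genes, with the distance to the annotated gene start in bases on the x axis and 1 gene per row. Irgm2, Igtp, Tgtp1, Tgtp2 and Gm12185 show a GAS (red) and an ISRE (blue) side by side, Irgm1 shows overlapping ISRE matches and 1 AP-1 match (orange), and Ifi47 shows none.

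Across the arrays, 60.6% to 71.4% of probes were well above background, no spot was saturated, and the 75th percentile of the processed signal lay between 252 and 278. Below, signals are Agilent processed signals on a linear scale, with the scanner's own error estimate where ± is written. That error, 10.0% to 14.9% of the signal for member probes above background, covers the spot and not the culture. Differences are log2 values taken after each array's 75th percentile was subtracted. Signals of different probes are not compared, since probes differ in how well they hybridise. The targeted gene Batf2 had a signal of 10.8 (not well above background) in Batf2-/- macrophages with R848, 26.7 in untreated Batf2-/- macrophages, 94.8 in wild type with R848 and 34.1 in untreated wild type. The last 3 signals were well above background, and the untreated genotypes differed by only 1.21-fold (-0.27). Whether the probe lies in the deleted part of the gene was not analysed here. All 10 macrophage markers examined were well above background on all 4 arrays.

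Irgm1, a regulatory IRG needed for resistance to mycobacteria and listeria in mice, was read by 3 probes of the transcript NM_008326. Its brightest probe gave 813 ± 81.4 with R848 and 171 ± 17.3 untreated in Batf2-/- macrophages, and 551 ± 55.3 with R848 and 210 ± 21.2 untreated in wild type. A second probe gave 262 with R848 and 50.4 untreated in Batf2-/- macrophages, and 171.5 with R848 and 55.03 untreated in wild type. The third gave 297 with R848 and 67.3 untreated in Batf2-/- macrophages, and 171 with R848 and 77.0 untreated in wild type. On each of the 3 probes the R848-treated Batf2-/- array was the highest, the treated wild-type array came next, and the untreated Batf2-/- array was the lowest.

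Irgm2, a regulatory IRG of the Golgi membranes, had 1 probe (NM_019440). It gave 3534 with R848 and 604 untreated in Batf2-/- macrophages, and 2170.2 with R848 and 690 untreated in wild type. Igtp, a regulatory IRG of the endoplasmic reticulum that is required for resistance to Toxoplasma gondii in mice, had 1 probe (NM_018738). It gave 2245 with R848 and 307 untreated in Batf2-/- macrophages, and 1849 with R848 and 587 untreated in wild type. Both genes had the same order of arrays as Irgm1, but the untreated arrays stood farther apart for Igtp than for Irgm2.

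Iigp1, the effector Irga6, was read by 2 probes that disagreed. The probe of its RefSeq transcript, NM_021792, gave 113 ± 11.8 with R848 and 3.39 ± 2.62 untreated in Batf2-/- macrophages, and 38.4 ± 5.73 with R848 and 9.56 ± 2.95 untreated in wild type. Neither untreated value was well above background, so that probe was measured on the treated arrays alone. The probe of the cDNA AK172047, which the deposited table also names Iigp1, gave 342 with R848 and 234 untreated in Batf2-/- macrophages, and 343 with R848 and 342 untreated in wild type. This probe was near level on 3 arrays and lower on the untreated Batf2-/- array. The position of the AK172047 probe in the gene was not analysed here. It is the brighter of the pair, and by the rule used for every gene it stands for Iigp1 in the counts over genes below.

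The Tgtp2 probe (NM_001145164), for an effector that binds the vacuole early in infection, gave 987 with R848 and 326 untreated in Batf2-/- macrophages, and 896 with R848 and 301 untreated in wild type. The treated arrays were both higher than the untreated ones, and the genotypes lay close together in each condition.

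**Figure D2:**
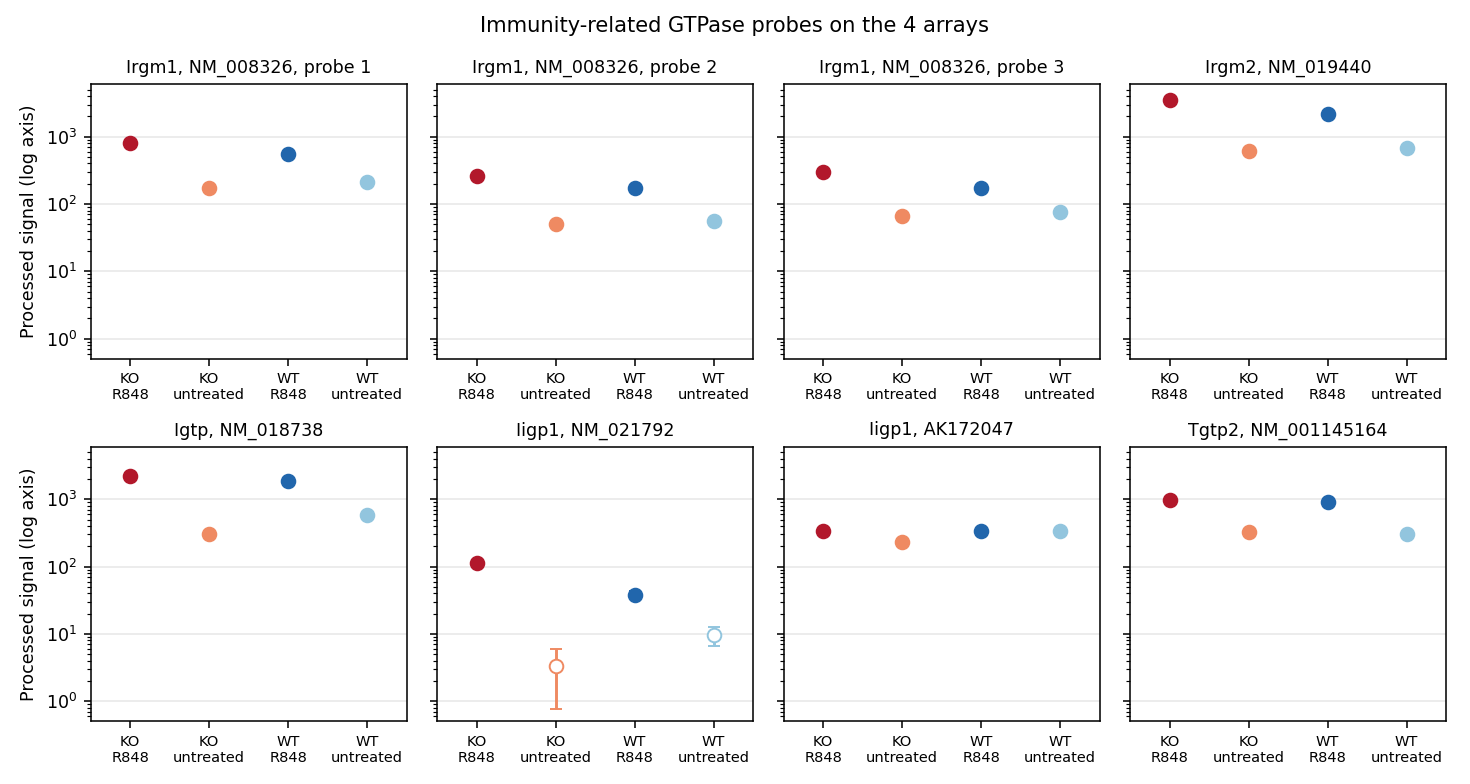
Processed signal (log axis) of the 7 member probes and the Tgtp2 probe on the 4 arrays, 1 array per point, with bars for the scanner's error estimate and open points where the signal was not well above background. In the Irgm1, Irgm2 and Igtp panels the treated Batf2-/- array is the highest, and the AK172047 probe of Iigp1 is near level.

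After R848, the 3 regulatory genes were higher in both genotypes. In Batf2-/- macrophages, Igtp was 7.61-fold higher with R848 than untreated (log2 difference 2.93), Irgm2 6.09-fold (2.61) and Irgm1 4.95-fold (2.31). Taken at the brightest probe, 3 of the 4 measured members were at least 2-fold higher, where 6.84% of the 19840 genes tested were. The median of the 4 was 2.46, against -0.06 over all genes. Iigp1 was at least 10.2-fold higher at its RefSeq probe and 1.52-fold higher (0.60) at the AK172047 probe. Tgtp2 was 3.15-fold higher (1.65). Within this comparison Igtp stood at the 99.1 percentile of all genes, Irgm2 at 98.8 and Irgm1 at 98.3.

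In wild-type macrophages the same comparison gave 3.30-fold for Igtp (1.72), 3.30-fold for Irgm2 (1.72) and 2.75-fold for Irgm1 (1.46). Again 3 of the 4 members were at least 2-fold higher, where 6.19% of 18762 genes were, and their median was 1.59, against -0.03 over all genes. Iigp1 was at least 3.34-fold higher at its RefSeq probe and 1.05-fold higher (0.07) at the AK172047 probe, and Tgtp2 was 3.11-fold higher (1.64). The percentiles here were 97.6 for Igtp and Irgm2 and 96.7 for Irgm1. With R848, 0 of the 4 members were at least 2-fold lower in Batf2-/- macrophages, where 6.58% of genes were, and 0 in wild type, where 7.01% were. For comparison, 10 spots of 1 probe on the same arrays gave log2 differences with a pooled SD of 0.071 in Batf2-/- macrophages and 0.074 in wild type. The scanner's error estimate for a member's difference was 0.20 to 0.22. Neither covers the spread between cultures.

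Between the untreated genotypes the regulatory genes differed little, except Igtp. Igtp was lower in Batf2-/- macrophages by a log2 difference of -0.85, a 1.80-fold difference at the 4.22 percentile of all genes. Irgm1 differed by -0.21, about the size of the scanner's error estimate of 0.21, and Irgm2 by -0.11. Iigp1 differed by -0.46 at the AK172047 probe and has no value at the RefSeq probe, whose untreated signals were below that level in both genotypes. Tgtp2 differed by 0.20. Of the 4 members, 0 were at least 2-fold lower, where 3.18% of 20300 genes were, and 0 were at least 2-fold higher, where 2.8% were.

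With R848 the 3 regulatory genes had the opposite sign. Irgm2 was higher in Batf2-/- macrophages than in wild type by 0.78 (1.71-fold), Irgm1 by 0.63 (1.55-fold) and Igtp by 0.35 (1.28-fold). At its RefSeq probe Iigp1 was 3.10-fold higher (1.63), at the 99.5 percentile of all genes, while the AK172047 probe gave 0.07. Tgtp2 differed by 0.21, with the same sign as untreated. At the brightest probe 0 of the 4 members were at least 2-fold higher, where 2.34% of 18768 genes were, and 0 were at least 2-fold lower, where 2.45% were. Their median was 0.49, against 0.04 over all genes.

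The difference between the responses, Batf2-/- minus wild type, was 1.20 for Igtp, 0.88 for Irgm2, 0.85 for Irgm1 and 0.02 for Tgtp2. It was 0.53 for the AK172047 probe of Iigp1. For the RefSeq probe it was 1.61, which is not a bound because both untreated values were set to a floor. Only Igtp of the 4 members was at least 2-fold higher in this difference, where 3.14% of 18456 genes were, and 0 were at least 2-fold lower, where 2.5% were. With another background correction (normexp) this count was 0, where 140 of 18496 genes were at least 2-fold higher, and Igtp gave 0.96. With the mean over probes the count was 2, where 540 of 18467 genes were, and Iigp1 gave 1.07. That mean takes in the RefSeq value of 1.61 and so rests in part on the floor. The pooled SD of this difference between spots of 1 probe was 0.099, and the scanner's error estimate was 0.29 to 0.31. For Igtp the difference came from the untreated arrays (-0.85) more than from the treated ones (0.35), while for Irgm1 and Irgm2 it came mainly from the treated arrays. The responses share no array with each other, but the comparisons between genotypes use the same 4 arrays again, so the 5 comparisons are not separate evidence.

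**Figure D3:**
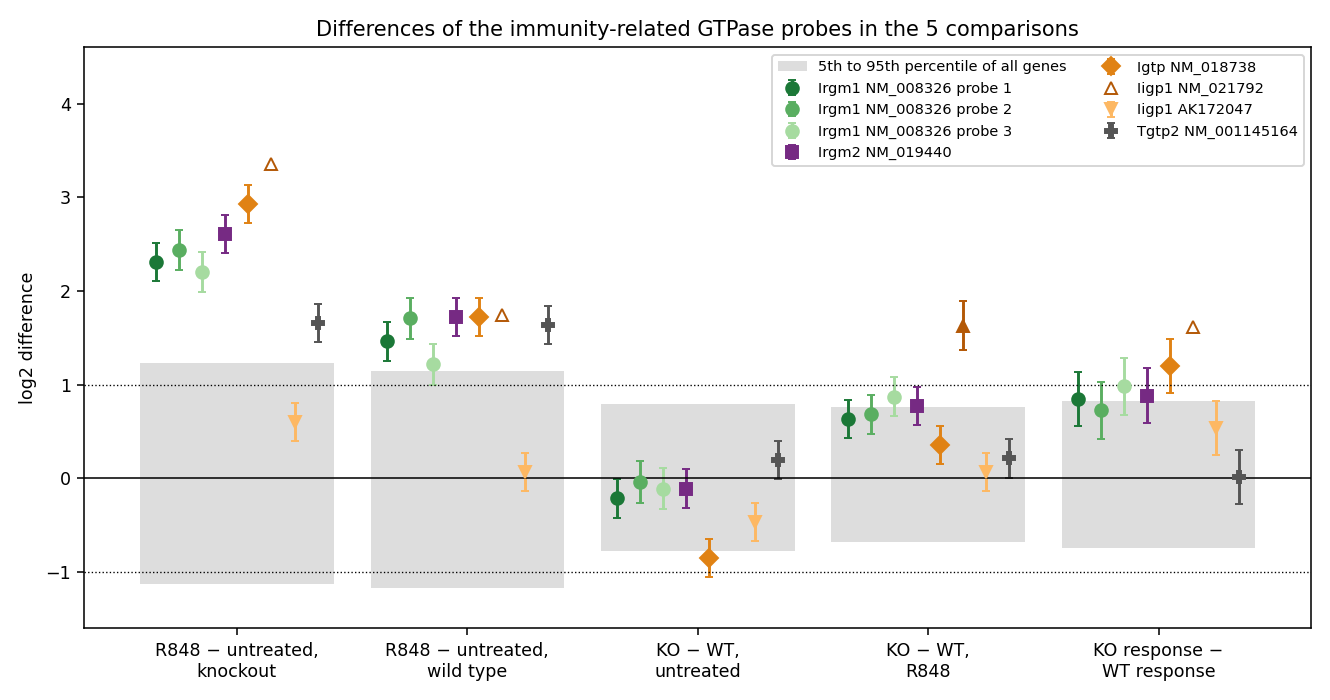
Log2 differences of the member probes and of the Tgtp2 probe in the 5 comparisons, with the scanner's error estimate as bars, the span from the 5th to the 95th percentile of all genes in grey, and dotted lines at 2-fold. Open triangles are lower bounds in the responses and rest on floor values in the last comparison. Irgm1, Irgm2 and Igtp lie above the grey span in both responses, and Tgtp2 lies near 0 in the last comparison.

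The 3 Irgm1 probes gave a measure of how far probes of 1 gene agree. Their mean log2 difference with R848 was 2.31 ± 0.12 in Batf2-/- macrophages and 1.46 ± 0.25 in wild type (SD over 3 probes). Their mean difference between genotypes was -0.12 ± 0.085 untreated and 0.73 ± 0.12 with R848, and the difference between responses was 0.85 ± 0.13. All 3 probes had the same sign in all 5 comparisons. The probes share the RNA of each array and are no biological replicates.

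By their response to R848, other genes of the family fell into 2 sorts. Of 13 listed, 12 were on the array and 11 were measured. In Batf2-/- macrophages 4 of these were at least 2-fold higher with R848 and 0 lower, with a median of 0.42. In wild type 3 were higher and 2 lower, with a median of 0.07. That median is the value of Gm4841, whose probes disagree, as given below. Ifi47, an effector, gave 6295 with R848 and 1021 untreated in Batf2-/- macrophages, and 4378 with R848 and 1352 untreated in wild type. Its log2 responses were 2.68 in Batf2-/- macrophages and 1.76 in wild type, close to those of Irgm2. The 250 bases before its annotated start held no ISRE or GAS match to the letters searched, and sequence farther away was not searched. Gm4951, a gene near Iigp1, gave responses of 2.53 in Batf2-/- macrophages and 1.45 in wild type at its brightest probe. Gm12250, the effector Irgb10, gave 1.49 in Batf2-/- macrophages and 0.85 in wild type at its brightest probe, while its dimmer probe gave 2.87 in Batf2-/- macrophages and at least 1.54 in wild type.

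The remaining measured family genes were not at least 2-fold higher with R848 in either genotype. Gm12185 had the GAS and ISRE pair, and its promoter was 94.4% identical to that of Tgtp2. Its probe was dim. It read 17.6 with R848 and 22.4 untreated in Batf2-/- macrophages, and 22.7 with R848 and 26.0 untreated in wild type. Both treated signals lay near the lowest signal well above background on their array. The log2 responses were -0.30 in Batf2-/- macrophages and -0.13 in wild type, smaller than the scanner's error estimate of 0.38 for each. Whether Gm12185 responds could therefore not be judged well from this probe. Irgq was lower with R848 in wild type (-1.36) at its brightest probe and differed by -0.71 in Batf2-/- macrophages, though its other probe gave 0.97 in Batf2-/- macrophages and -0.92 in wild type. 9930111J21Rik2 was lower in wild type (-1.03) and differed by -0.27 in Batf2-/- macrophages. Gm5431, 9930111J21Rik1, Gm4841 and F830016B08Rik stayed within 2-fold in both responses at the brightest probe, and Irgc1 was not well above background. For Gm4841 that probe read 123683 to 124763 on the 4 arrays, while its other probe was not well above background on any. At the brightest probe, 0 of the 11 differed at least 2-fold between genotypes in either condition, and Gm4951 (1.08) was the 1 gene at least 2-fold higher in the difference between responses. With R848, 9 of the 11 were higher in Batf2-/- macrophages (median 0.40, against 0.04 over all genes). Among them were 9930111J21Rik2 and Irgq (0.80 each) and Gm5431 (0.67). The difference between responses was positive for 9 of the 11 (median 0.64, against -0.02 over all genes). Other probes gave larger values. With R848, the dimmer Gm12250 probe was higher in Batf2-/- macrophages by 1.70 (3.25-fold) and the other Irgq probe by 1.21 (2.31-fold). Their differences between responses were 1.33, which rests on a floor value, and 1.89.

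Guanylate-binding proteins are the second large family of interferon-induced GTPases and act with IRGs at pathogen vacuoles. Of 11, 8 were at least 2-fold higher with R848 in Batf2-/- macrophages (median 2.37), and 6 of the 9 measured in wild type were (median 1.69). Gbp2 differed by 5.08 in Batf2-/- macrophages and 4.19 in wild type. Gbp3 differed by 4.19 in Batf2-/- macrophages and 3.77 in wild type, and Gbp7 by 4.03 in Batf2-/- macrophages and 2.81 in wild type. Untreated, Gbp8 (-1.19), Gbp9 (-1.17) and Gbp11 (-1.95) were at least 2-fold lower in Batf2-/- macrophages, the last pair as bounds. The members' medians with R848 were 2.46 in Batf2-/- macrophages and 1.59 in wild type. In the difference between responses, 4 of the 9 measured guanylate-binding proteins were at least 2-fold higher (median 0.98), where 3.14% of all genes were. For 3 of these 9 the value rests on a floor.

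**Figure D4:**
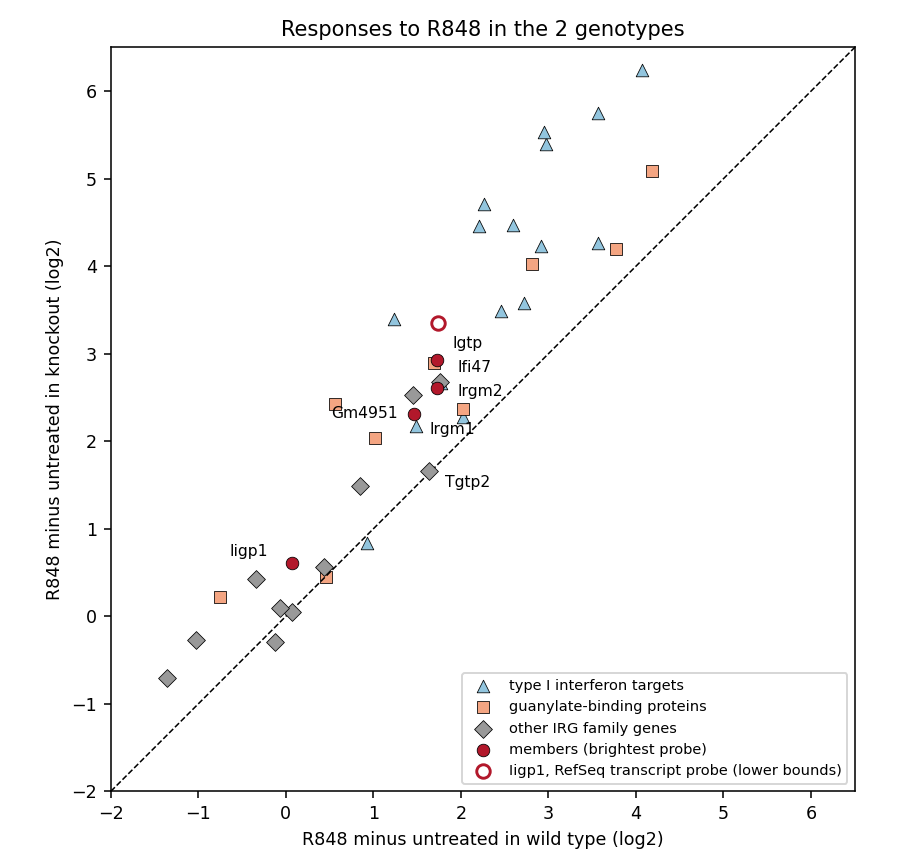
Log2 response to R848 in Batf2-/- macrophages (y axis) against that in wild type (x axis), for IRG members, other IRG genes, guanylate-binding proteins and type I interferon targets, 1 gene per point, with the line of equal responses dashed. Igtp, Irgm2 and Irgm1 lie above the line and Tgtp2 lies on it. Points of some dim genes are lower bounds.

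The pathway upstream of the family was read on the same arrays. Ifng, the main inducer of IRGs, was dim: 18.1 with R848 and 3.00 untreated in Batf2-/- macrophages, and 37.8 with R848 and 6.30 untreated in wild type, neither untreated value being well above background. With R848 its difference between Batf2-/- and wild-type macrophages was -0.99. The Batf2-/- signal lay near the lowest signal well above background on that array, 14.5. How Ifng relates to the IRG values was not tested. Ifnb1, the first type I interferon made by macrophages, gave 30.6 and 20.3 with R848 in Batf2-/- and wild-type macrophages (0.67) and was not well above background untreated. Against untreated cells, Ifng was at least 1.63-fold higher with R848 in Batf2-/- macrophages and at least 3.28-fold higher in wild type. Ifnb1 was at least 2.77-fold higher in Batf2-/- macrophages and at least 1.77-fold higher in wild type.

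Among 20 genes of interferon receptors and JAK-STAT-IRF signalling, 9 were at least 2-fold higher with R848 and 1 lower in Batf2-/- macrophages, and 7 were higher and 1 lower in wild type. Irf1, the factor that binds the ISRE after interferon-gamma, gave 3570 with R848 and 1062 untreated in Batf2-/- macrophages, and 2068 with R848 and 1115 untreated in wild type. Its difference between genotypes was 0.86 with R848 and 0.01 untreated, and the difference between responses was 0.85. Stat2 had responses of 2.35 in Batf2-/- macrophages and 1.46 in wild type, and Socs1, the feedback inhibitor, 1.92 in Batf2-/- macrophages and 1.33 in wild type. Irf7 had the largest genotype difference of the list, -2.48 untreated, with responses of 3.40 in Batf2-/- macrophages and 1.23 in wild type. The receptor genes Ifngr1, Ifngr2, Ifnar1 and Ifnar2 stayed within 2-fold in all 5 comparisons.

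Other interferon targets set the scale. Of 16 type I interferon targets such as Ifit1 and Mx1, 15 were at least 2-fold higher with R848 in each genotype, with medians of 4.24 in Batf2-/- macrophages and 2.53 in wild type. Untreated, 8 of the 16 were at least 2-fold lower in Batf2-/- macrophages, with a median of -0.96. Of the 4 members 0 were, with a median of -0.34, where 3.18% of 20300 genes were. Of 15 measured interferon-gamma targets outside the GTPase families, 12 were higher in Batf2-/- macrophages (median 1.92) and 9 in wild type (median 1.13). The difference between the lists was not tested.

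IRG proteins are directed to vacuoles by the conjugation machinery of autophagy, and ubiquitin-linked adaptors follow them. Of 21 genes of that machinery, 2 were at least 2-fold higher and 2 lower with R848 in Batf2-/- macrophages, and 3 were higher and 4 lower in wild type. Over all genes, 6.84% were higher and 6.58% lower in Batf2-/- macrophages, and 6.19% higher and 7.01% lower in wild type. The counts were not tested against these shares. Sqstm1, the p62 adaptor, was higher in both (1.41 in Batf2-/- macrophages and 1.49 in wild type), as was Trim21, a ubiquitin ligase (1.84 in Batf2-/- macrophages and 1.11 in wild type). Calcoco1 was lower in both (-1.30 in Batf2-/- macrophages and -1.61 in wild type), as was the autophagy receptor Nbr1 (-1.19 in Batf2-/- macrophages and -1.08 in wild type). Optn was lower in untreated Batf2-/- macrophages than in untreated wild type (-1.70), and its response was -0.97 in Batf2-/- macrophages and -2.23 in wild type. In wild type Atg14 was also lower with R848 (-1.27) and Atg9a higher (1.06), with -0.73 and 0.33 in Batf2-/- macrophages. Atg3, Atg5 and Atg16l1, which join the ubiquitin-like proteins to membranes, stayed within 2-fold in all 5 comparisons. Atg7 (-0.73 in Batf2-/- macrophages and -0.99 in wild type) and Atg10 (-0.995 and -0.79) were lower with R848 by less than 2-fold. Of the 21 genes, 8 had a positive response in each genotype.

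The genes nearest in pattern were sought among 17137 genes well above background on all 4 arrays, by the root mean square difference of log2 levels after each gene's mean was taken off. The 3 nearest to Irgm1 were Trex1 (0.019), a DNA exonuclease, Calcrl (0.041) and Tnfsf9 (0.063). Trex1 read 1722 with R848 and 366 untreated in Batf2-/- macrophages, and 1165 with R848 and 433 untreated in wild type. The nearest to Irgm2 were Dnmt3l (0.044), Ampd3 (0.052) and Ifih1 (0.088), the RNA sensor MDA5, and those to Igtp were Ppp3cc (0.059), Dhx58 (0.094), the RNA sensor LGP2, and Mndal (0.104). The near-level AK172047 probe of Iigp1 had A130010C12Rik (0.011), Gm32026 (0.023) and Fam83h (0.026) beside it. The 8 nearest to the median profile of the members were Olr1, Calcrl, Trex1, Tnfsf9, Gvin1, Gm4759, Stat2 and Slfn5, at 0.050 to 0.087.

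**Figure D5:**
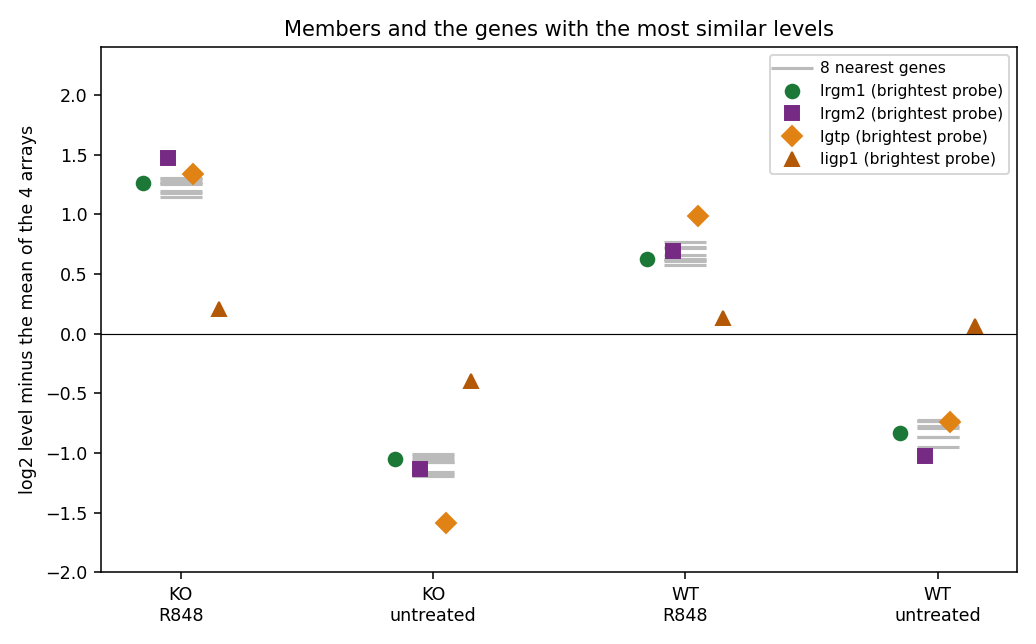
Log2 level on each array minus the mean of the 4 arrays, for the 4 members at their brightest probe (symbols) and for the 8 genes nearest to the members' median profile (grey bars), 1 array per column. Irgm1, Irgm2 and Igtp are high on both R848 arrays and low on both untreated ones, with Igtp lowest on the untreated Batf2-/- array.

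The counts of neighbouring genes can be read against the shares over all genes, 6.84% in Batf2-/- macrophages and 6.19% in wild type. Around the chromosome 11 cluster that runs from Irgm1 to Ifi47, 2 of 11 measured neighbours were at least 2-fold higher with R848 in Batf2-/- macrophages and 1 of 10 in wild type, counting 5 genes on each side and 1 inside. The one inside, Psme2b, a copy of a proteasome activator subunit gene, differed by 2.24 in Batf2-/- macrophages and 2.02 in wild type, and Timd2 differed by 1.44 in Batf2-/- macrophages and 0.59 in wild type. Around the cluster from Gm12250 to Irgm2, which holds Igtp, 1 of 9 was higher in Batf2-/- macrophages and 2 of 10 in wild type. Larp1, higher in both, read 4018 with R848 and 1475 untreated in Batf2-/- macrophages, and 3951 with R848 and 1868 untreated in wild type. Around Gm4951 and Iigp1 on chromosome 18, 0 of 10 in Batf2-/- macrophages and 0 of 9 in wild type were. The values ran from -0.70 to 0.27 in Batf2-/- macrophages and from -0.29 to 0.28 in wild type.

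The genotypes also differed in transcripts of other blood cells, whose part in the IRG values was not tested. The summed signal of 9 basophil and mast cell markers was 776 with R848 and 729 untreated in Batf2-/- macrophages, against 3672 with R848 and 6473 untreated in wild type. Of these markers, 5 and 8 were well above background on the treated and untreated Batf2-/- arrays, and all 9 on both wild-type arrays. Hdc was the largest part of both Batf2-/- sums, with 460 with R848 and 198 untreated. Untreated, Mcpt8 read 43.3 in Batf2-/- macrophages and 2159 in wild type, while Tpsb2 read 116 and 146. The sum of 10 granulocyte and precursor markers was 75528 with R848 and 84801 untreated in Batf2-/- macrophages, against 124397 with R848 and 167812 untreated in wild type, and all 10 were above background on every array. Most of each sum was S100a8 and S100a9, so it says little about the dimmer markers. Untreated, Mpo read 970 in Batf2-/- macrophages and 15242 in wild type, Ctsg 312 and 5344, and Ltf 4781 and 5647. T cells and NK cells are the usual source of interferon-gamma. Of 7 T cell markers, 5 were well above background on each treated array and 6 on each untreated array, with summed signals of 3410 and 3380 in treated and untreated Batf2-/- macrophages, and 4026 and 3789 in treated and untreated wild type. Cd3e and Lck were detected on all 4 arrays and Cd3g on none. Most of each sum was Cd4, which read 2178 to 2653. Cd8a was not level: it read 35.2 with R848 and 16.6 untreated in Batf2-/- macrophages, and 179 with R848 and 21.6 untreated in wild type. Of 8 NK cell markers, 5 were well above background with R848 and 6 untreated in Batf2-/- macrophages, and 4 with R848 and 6 untreated in wild type, with summed signals of 1470 to 1884. Prf1 was detected on all 4 arrays and Ncr1 on none. Most of each sum was Prf1, which read 1151 to 1340. Nkg7 read 20.4 with R848 and 49.7 untreated in Batf2-/- macrophages, and 78.5 with R848 and 350 untreated in wild type. Gzmb was well above background only in untreated Batf2-/- macrophages (116), and Klrd1 only in untreated wild type (55.9). In such bulk RNA, fewer cells of a type and less RNA per cell cannot be told apart.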

How the data were processed

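The authors deposited 1 file of spot intensities per array. The scanner software was Agilent Feature Extraction, version 11.5.1.1 per the submitters' processing notes. Its processed signal is a linear intensity without background and spatial trend, per the file headers. The authors also deposited a table with scaled intensity, used as an alternative, and log2 ratios between arrays, which were not used here. Per the file headers, the probe grid is annotated to mm9.

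Here, log2 of the processed signal was centred on each array's 75th percentile. Spots marked as outliers were left out (70 to 115 per array), and spots of 1 probe were averaged. A comparison used probes well above background on at least 1 of its arrays. An array below background was set to its lowest signal well above background, or to the probe's own signal if higher, and the result is then given as "at least". The brightest probe stood for each gene. Genes at least 2-fold different are counted. With 1 array per group there is no test. The number of arrays limits the precision, and nothing here measures the spread between cultures.

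The members, lists and rules were chosen with earlier results of these data known. The members were named in every comparison, and genes of other lists where they differed at least 2-fold, up to 6 per list, plus Batf2, Irf1, Ifnb1, Ifng and a gene that is not reported here. The nearest genes were the 3 per member and the 8 for the median profile. Promoters were searched on both strands for the GAS and AP-1 letters given above, and for the ISRE, kappaB and composite AP-1 and IRF elements under their names. Genes named for values inside 2-fold, for a neighbour of a cluster or for a promoter were chosen after their values were seen. Alternatives were background correction with normexp (limma 3.58.1, offset 50), median centring, quantile normalization, the authors' scaled intensities, the mean over probes, a filter on every array, no filter, and spots in areas that stand apart left out. Since the files used hold no mean signal column, normexp was run on the median signal. Software was Python 3.11.15 with pandas 2.3.3, and R 4.3.3. The scripts were tested on simulated data.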

Additional observations from a re-analysis of the deposited data

Results flagged for a closer look

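For 6 of the 7 member probes, the difference between Batf2-/- and wild type had opposite signs untreated and with R848, as had 38.7% of the 36408 probes measured in both conditions. The seventh, the RefSeq probe of Iigp1, has no untreated value. The response of Batf2-/- macrophages exceeded that of wild type by 0.85, 0.73 and 0.98 (log2) at the 3 Irgm1 probes, by 0.88 for Irgm2, by 1.20 for Igtp and by 0.53 at the AK172047 probe of Iigp1. With 1 array per group, the difference was not tested for any of them. One side was small for some: the untreated difference was -0.04 at the Irgm1 probe with a response difference of 0.73, and -0.11 for Irgm2, and the treated difference was 0.07 at the AK172047 probe, about the SD between spots of 1 probe.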

How the results depend on the processing

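No paired analysis was possible because each group is 1 array and the labels give no replicate numbers to share. Over 9 alternatives, 224 values of single genes (members and Tgtp2) were recomputed. Of these, 197 lay within the spread between spots of 1 probe, 27 moved beyond it, and 1 changed sign (the Tgtp2 response difference, to -0.01). Many of the 224 could not move, so the 197 do not measure how well the values hold. The filter on every array and no filter left the brightest probes of these genes unchanged. No spot of these genes lay in a left-out area. The RefSeq probe changed Iigp1 alone, and the mean over probes only genes with several probes. The authors' scaled intensities were the processed signal times 1 factor per array. With normexp, the members' median response was 2.13 in Batf2-/- macrophages and 1.33 in wild type. In the difference between responses 0 members were then at least 2-fold higher, where 140 of 18496 genes were. With median centring the median responses were 2.60 in Batf2-/- macrophages and 1.74 in wild type. That centring also moved the median of all genes to 0.09 in Batf2-/- and 0.13 in wild-type macrophages, by more than 0.1. It raised the share of called genes that were higher to 63.1% in Batf2-/- and 60.99% in wild-type macrophages. With the mean over probes, the members' median genotype difference with R848 was 0.75. In the difference between responses 2 members were then at least 2-fold higher, where 540 of 18467 genes were. The choice of the RefSeq probe for Iigp1 was added after seeing the data. It gave a median response of 2.77 in Batf2-/- macrophages and a median genotype difference with R848 of 0.71. In that genotype difference 1 member was at least 2-fold higher, where 441 of 18768 genes were. In the difference between responses 2 members were, where 581 of 18456 genes were. With the mean over probes and with the RefSeq probe, Iigp1 is among these 2 through RefSeq untreated values that were set to a floor. The Iigp1 result depends on the probe, and signals near background limit it.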
